A study of Arabidopsis thaliana with 4 samples.

Results

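*PR1* (AT2G14610), *PR5* (AT1G75040) and *OSM34* (AT4G11650) are secreted-protein genes of the plant defense response, and all 3 were listed as more abundant in stems of the *msil2/4* double mutant. They were chosen by their presence in the Up table of the study, that is, on the same RPKM values that are described here, and they are 3 of the 156 genes in that table and 3 of the 234 genes in the Up and Down tables together. The genotype difference of these genes is therefore given as a description, with no test. The study sequenced mRNA of the lower part of mature inflorescence stems in 4 libraries. The tested plants were *msil2/4* plants (2 libraries), which combine the T-DNA alleles *msil2-1* and *msil4-1*, obtained by crossing, in the Musashi-like RNA-binding protein genes *MSIL2* and *MSIL4*, and the wild-type plants were Col-0 (2 libraries), both grown in long days without treatment. The sample labels call the mutant genotype a knockdown, and neither *MSIL2* nor *MSIL4* is in a table, so the genotype labels could not be checked with these values.

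Pathogenesis-related (PR) proteins accumulate in the apoplast and vacuole of plants under attack. *PR1* encodes a small protein of the CAP superfamily and is the usual marker of salicylic acid signaling and of systemic acquired resistance, in which the coactivator NPR1 works with TGA transcription factors at its promoter. *PR5* encodes a thaumatin-like protein, a member of a family with antifungal activity, and is also induced by salicylic acid. *OSM34* encodes an osmotin-like protein of the same family. Osmotin was named in tobacco, where it accumulates in cells adapted to salt, and the tobacco osmotin gene also responds to ethylene.

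The stretches upstream of *PR5* and *OSM34* are shown because these genes of 1 family were both higher in *msil2/4* while their levels in Col-0 differed widely. The 300 bases before the annotated transcript start were read from the RefSeq assembly TAIR10.1, on the strand of the gene and written 5′ to 3′. Capitals mark every match, on either strand, to the W-box core TTGAC, the TGA-factor core TGACG, the GCC box GCCGCC and the ABRE core ACGTG. The W-box core overlaps the TGA core where they are read as TTGACG.
*PR5*, chr1:28177370-28177669, plus strand: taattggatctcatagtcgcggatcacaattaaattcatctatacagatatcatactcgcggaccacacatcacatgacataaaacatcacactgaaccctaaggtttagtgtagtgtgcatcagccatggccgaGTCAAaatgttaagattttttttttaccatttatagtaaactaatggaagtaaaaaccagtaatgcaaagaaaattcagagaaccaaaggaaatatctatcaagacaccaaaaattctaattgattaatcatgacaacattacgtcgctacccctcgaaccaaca
*OSM34*, chr4:7026225-7026524, minus strand: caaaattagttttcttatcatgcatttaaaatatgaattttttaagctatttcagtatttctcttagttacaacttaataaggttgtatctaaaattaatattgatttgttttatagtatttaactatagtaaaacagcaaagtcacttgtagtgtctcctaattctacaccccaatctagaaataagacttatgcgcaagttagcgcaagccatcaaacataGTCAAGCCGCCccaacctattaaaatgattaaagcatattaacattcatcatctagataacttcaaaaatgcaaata

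The 300 bases upstream of *PR5* and of *OSM34* each held 1 W-box core, the letters bound by WRKY factors, at position -165 in *PR5* and -77 in *OSM34*, counted from the transcript start. Of 27443 protein-coding genes, 50.4% had a W-box core in a window of that length. The *OSM34* window also held a GCC box, the letters bound by ERF factors, which followed its W-box core without a gap at position -72, and the *PR5* window held none, against 2.26% of all genes with one. In 1000 upstream bases, *PR5* had W-box cores at -996, -411 and -165, and *OSM34* had them at -993, -755 and -77, a motif that 88.12% of all genes held there. *OSM34* had 1 TGA core, at -992, overlapping a W-box core, and *PR5* had none, against 54.12% of all genes. Neither gene had an ABRE core in that window, against 54.41% of all genes. These are matches of letters and not shown binding sites.

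*PR1* is a gene of 1 exon on chromosome 2 (minus strand, 6241640 to 6242541 in TAIR10.1), with a protein of 161 residues and a computed isoelectric point of 9.08. *PR5* lies on chromosome 1 (plus strand, 28177670 to 28179022) and *OSM34* on chromosome 4 (minus strand, 7024852 to 7026224), each with 2 exons. Their proteins have 239 residues for PR5 and 244 for OSM34. Both thaumatin-like proteins had 16 cysteines, which form the conserved disulfide bonds of the family, and PR1 had 6. The computed isoelectric point was 4.75 for PR5 and 6.08 for OSM34, and these proteins shared 108 of 221 aligned residues (48.87%). The closest relative of PR5 was the product of AT1G75050, at 76.15% identity. All these protein values are for the whole translated coding sequence and not for the mature secreted protein.

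*PR1* was nearly silent in Col-0 and strongly expressed in *msil2/4*. It was at 119 and 536 RPKM (reads scaled to transcript length and to the mapped reads of the library) in the *msil2/4* libraries, against 0.09 and 1.34 RPKM in the Col-0 libraries. The lower *msil2/4* library was 88.9 times the higher Col-0 library, the widest such gap of the 156 genes in the Up table. The mean was 328 ± 295 RPKM in *msil2/4* and 0.715 ± 0.884 RPKM in Col-0 (SD, n = 2 each), so that the SD was close to the mean in both genotypes. On the log2(RPKM + 1) scale, which understates the change of a gene this low in Col-0, the difference was 7.31 with a standard error of 0.81 from limma. It was the largest difference of the Up table on that scale.

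The *PR1* ratio depended strongly on single libraries. The ratio of the means was 458 over all 4 libraries. It was 749.5 without *msil2/4* replicate 1, 167 without *msil2/4* replicate 2, 244 without Col-0 replicate 1 and 3639 without Col-0 replicate 2. At the 30000000 reads per library that the labels state, 1 read on the 902-base *PR1* mRNA would be worth 0.037 RPKM if all reads mapped, so that the Col-0 values of 0.09 and 1.34 RPKM would be 2.43 and 36.2 times that. The log2 difference moved to 8.92 with 0.1 in place of 1 as the pseudocount and to 9.43 with 0.01. The tables give no mapped reads per library, so the depth behind each value is unknown.

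*OSM34* was also low in Col-0 and had close values in the *msil2/4* libraries. It was at 94.1 and 111 RPKM in the *msil2/4* libraries, against 0.82 and 3.01 RPKM in the Col-0 libraries. The genotypes did not overlap, as for 154 of the 156 genes in the Up table. The lower *msil2/4* library was 31.3 times the higher Col-0 library, the sixth widest gap of the Up table. Mean levels were 102 ± 11.8 RPKM in *msil2/4* and 1.92 ± 1.55 RPKM in Col-0 (SD, n = 2 each), a ratio of 53.5 and a log2 difference of 5.25 (standard error 0.47). The ratio was 34.0 without Col-0 replicate 1 and 125 without Col-0 replicate 2. The log2 difference became 5.92 and 6.01 with pseudocounts of 0.1 and 0.01.

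*PR5* differed from both in its level in the wild type. It was at 1397 and 873 RPKM in the *msil2/4* libraries, against 143 and 173 RPKM in the Col-0 libraries. In both Col-0 libraries it was the most abundant of the 156 up-regulated genes per length, and in *msil2/4* it was the first in replicate 1 and the second in replicate 2. The mean was 1135 ± 371 RPKM in *msil2/4* and 158 ± 21.5 RPKM in Col-0 (SD, n = 2 each), a ratio of 7.18 and a log2 difference of 2.80 (standard error 0.38), close to the same value with other pseudocounts. The lower *msil2/4* library was 5.04 times the higher Col-0 library, against a median of 4.17 over the Up table.

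**Figure D1:**
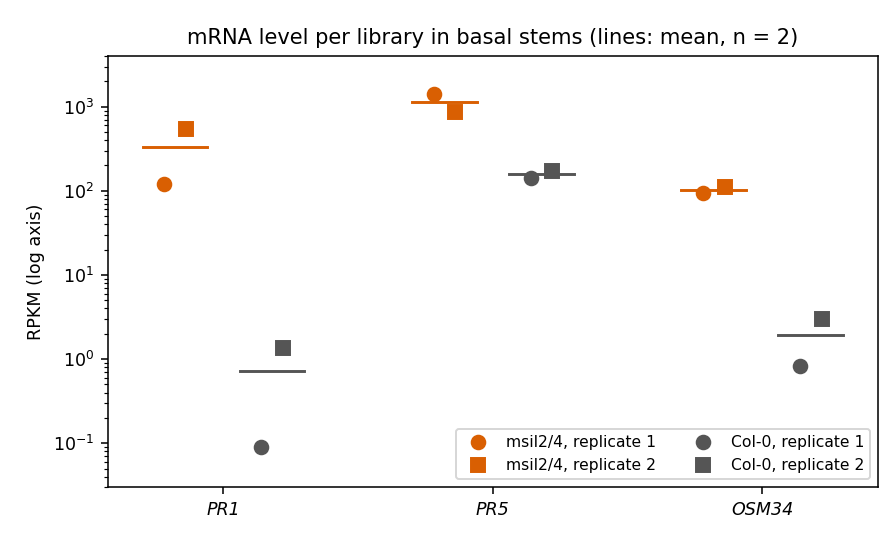
RPKM of *PR1*, *PR5* and *OSM34* in each library on a log axis, *msil2/4* in orange and Col-0 in gray, circles for replicate 1, squares for replicate 2 and lines for the mean of 2 libraries. *PR5* in Col-0, at 143 and 173 RPKM, lies above both *msil2/4* values of *OSM34*, at 94.1 and 111 RPKM.

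Fold and amount thus ordered the genes differently. By ratio the order was *PR1*, *OSM34* and *PR5*, at ranks 1, 10 and 63 of the Up table, while by added RPKM it was *PR5*, *PR1* and *OSM34*, at ranks 2, 7 and 20. The gain in *msil2/4* was 977 RPKM for *PR5*, 327 RPKM for *PR1* and 100.5 RPKM for *OSM34*. The wild-type level of *PR5* exceeded the *msil2/4* level of *OSM34* in every library, and it exceeded that of *PR1* in *msil2/4* replicate 1 but not in replicate 2.

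The order of the levels was *PR5*, then *PR1*, then *OSM34* in *msil2/4*, and *PR5*, then *OSM34*, then *PR1* in Col-0. In *msil2/4* the *PR1* and *OSM34* values lay close in replicate 1, with *PR1* at 1.27 times *OSM34*, and apart in replicate 2, at 4.84 times. In Col-0 *OSM34* was higher than *PR1* in each library, at 9.11 and 2.25 times. The ranges of these neighbours over the Col-0 libraries overlapped, since *PR1* in replicate 2, at 1.34 RPKM, lay above *OSM34* in replicate 1, at 0.82 RPKM, although the order was the same within each library. *PR5* was 11.7 and 1.63 times *PR1* in *msil2/4*, against 1589 and 129 times in Col-0, and 14.9 and 7.88 times *OSM34* in *msil2/4*, against 174 and 57.6 times in Col-0. *PR5* thus exceeded each of the others by less in both *msil2/4* libraries than in either Col-0 library. Summed over the genes, the level was 1610 and 1519 RPKM in the *msil2/4* libraries, against 144 and 178 RPKM in the Col-0 libraries. *PR5* made up 86.8% and 57.4% of that sum in *msil2/4*, against 99.4% and 97.6% in Col-0, and *PR1* made up 7.40% and 35.3%, against 0.0626% and 0.754%. Whether more cells expressed these genes or each cell held more of the mRNA cannot be told apart in RNA from whole stem sections.

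**Figure D2:**
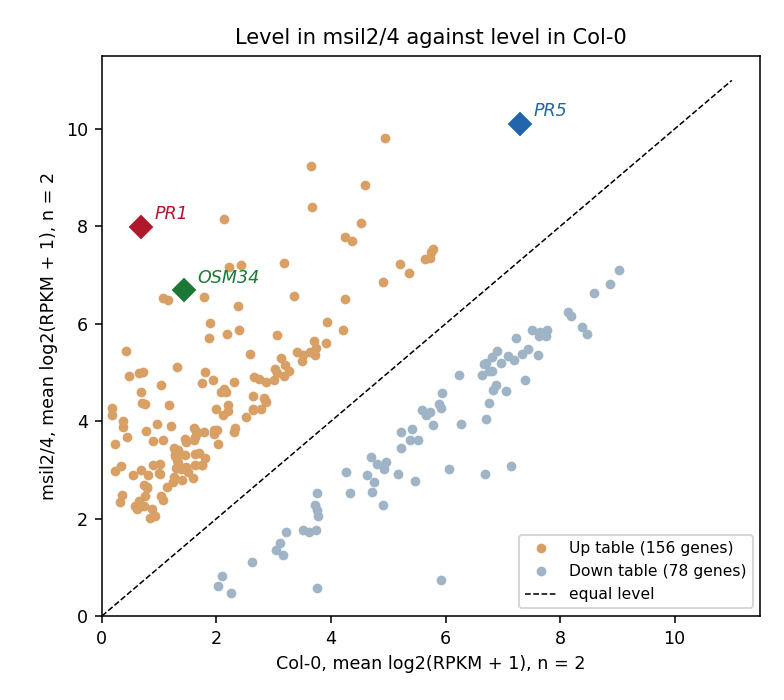
Mean log2(RPKM + 1) of 2 libraries in *msil2/4* (y axis) against Col-0 (x axis) for the 234 listed genes, with the dashed line at equal level. *PR5* stands alone at the upper right among the up-regulated genes, whereas *PR1* and *OSM34* lie at the left edge, with log2 differences of 7.31 and 5.25.

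Of the 3 genes, *PR1* varied most between the *msil2/4* replicates. Between the *msil2/4* libraries, *PR1* was 4.50 times higher in replicate 2, a difference of 2.16 in log2(RPKM + 1), and only 5 of the 156 up-regulated genes had a larger one, against a median size of 0.44. Between the Col-0 libraries, *PR1* was 14.9 times higher in replicate 2, at 0.09 and 1.34 RPKM, a wider ratio than in *msil2/4*. On the log2(RPKM + 1) scale, which compresses values this low, that difference was 1.10, and 26 of the 156 genes had a larger one, against a median of 0.40. *OSM34* was the opposite case in *msil2/4*, where its replicates differed by 0.23 and 107 genes differed by more, while in Col-0 they differed by 1.14, a ratio of 3.67. *PR5* was higher in replicate 1 in *msil2/4* (1.60 times) and slightly higher in replicate 2 in Col-0 (1.21 times). *PR1* and *OSM34* were thus higher in replicate 2 in both genotypes, as were 55 of the 156 up-regulated genes, and *PR5* was not. Over the whole Up table, the median level was 16.2 and 18.9 RPKM in *msil2/4* replicates 1 and 2, against 1.97 and 2.58 RPKM in Col-0.

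**Figure D3:**
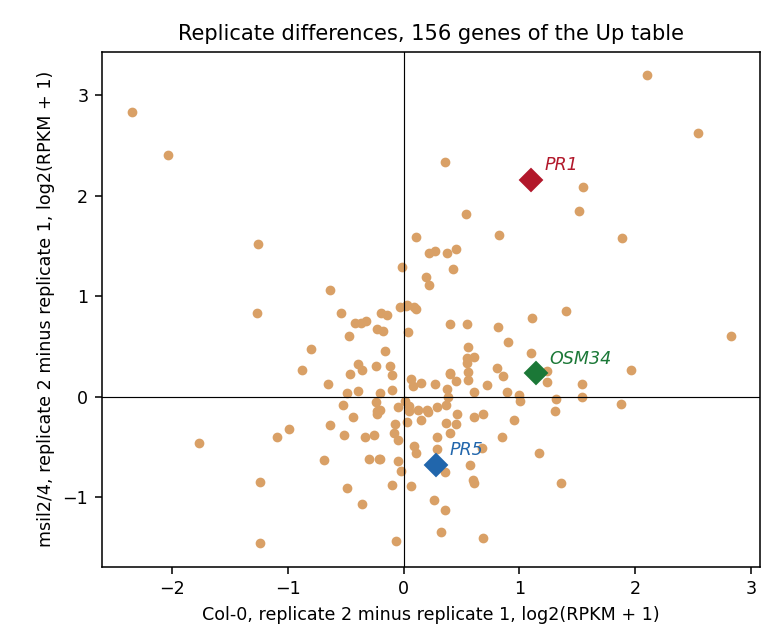
Replicate 2 minus replicate 1 in log2(RPKM + 1) for the 156 genes of the Up table, *msil2/4* on the y axis and Col-0 on the x axis. *PR1* lies at the upper right (2.16 in *msil2/4* and 1.10 in Col-0), *OSM34* near 0 on the y axis and *PR5* below 0 on it, at -0.68.

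The genes with the most similar pattern over the 4 libraries were ranked by the distance between their log2(RPKM + 1) values after each gene's mean was subtracted, a measure that mostly follows the size of the genotype difference. Nearest to *PR1* were the defensin gene *PDF1.2C* (distance 1.66), the extensin gene AT1G76930, named *EXT1* in the tables and *EXT4* in RefSeq (1.99), *OSM34* (2.47), *PDF1.2A* (2.66) and the germin-like gene AT5G39120 (2.70). *PDF1.2C* was at 92.5 and 860 RPKM in *msil2/4*, against 1.12 and 8.11 RPKM in Col-0, so it had the replicate 2 excess of *PR1* in both genotypes. It is a close copy of *PDF1.2A*, and reads may have been divided between these copies. Nearest to *OSM34* were *EXT1* (0.50), AT5G39120 (0.68), the peroxidase gene *PER37* (0.76), the PAR1 family gene AT5G52390 (0.81) and the lipid transfer protein-like gene AT4G12490 (0.95). Nearest to *PR5* were the beta-glucosidase gene *BGLU31* (0.21), the lipid transfer-type gene *EARLI1* (0.41), the ATPase gene AT3G28580 (0.50), the protease gene AT3G49340 (0.51) and *DLO1* (0.53), which encodes a salicylic acid hydroxylase. *BGLU31* was at 8.01 and 5.84 RPKM in *msil2/4*, against 0.06 and 0.29 RPKM in Col-0. AT3G49340 was at 13.9 and 7.9 RPKM, against 0.03 and 0.32 RPKM. For genes this low in Col-0 the pseudocount shrinks the difference, so nearness to *PR5* need not mean a similar ratio of RPKM. *PR1* stood 213th in the order from *PR5* and *OSM34* stood 147th, at distances of 4.97 and 2.61. In the order from *OSM34*, *PR1* stood 38th and *PR5* stood 43rd, at similar distances of 2.47 and 2.61, and *PR5* stood 48th in the order from *PR1*.

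The other members of the families of these genes were in neither table. Of 21 thaumatin-like genes by annotation, *PR5* and *OSM34* were in the Up table and 19 were in neither, and of 22 PR1-like genes only *PR1* was listed. The Up and Down tables hold 234 genes, beside the 27443 protein-coding genes counted above, so almost every gene is in neither. The 3 listed genes were themselves chosen from the Up table. The gene next to *PR5* on either side is a thaumatin-like gene, *TLP-3* (AT1G75030) and AT1G75050, and the gene next to *PR1* on one side is *PRB1* (AT2G14580), which encodes a PR1-like protein and ends 15412 bases away. All of these were in neither table. PRB1 shares 125 of 161 residues with PR1. The longest run of bases shared between an mRNA of these 3 genes and one of its family was 23 for *PR1*, 30 for *PR5* and 15 for *OSM34*, below the read length of 75, and none of 23, 28 and 29 tiles of 38 bases from these mRNAs had an identical copy elsewhere in the nuclear genome. A read without mismatches could therefore be placed at these genes alone. A gene in neither table may still have changed, as the study listed only genes past a log2 fold change of 1.5 or -1.5 and a limit on the false discovery rate. It may also have been too low in these stems, since the methods describe a filter at 1 RPKM.

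Of 32 genes of salicylic acid synthesis and response, 5 were in the Up table, 1 was in the Down table and 26 were in neither. Both tables together hold 234 genes, beside the 27443 protein-coding genes counted above. A list of 9 genes of salicylic acid synthesis and of the EDS1 and PAD4 node had 1 gene called higher in *msil2/4* (limma, Benjamini-Hochberg adjusted p below 0.05), *PBS3*, which encodes the enzyme that conjugates isochorismate to glutamate, and 8 in neither table. Of the 234 listed genes, 65.8% were called higher and 33.3% were called lower, shares that only reflect how the tables were made. These are shares of tested genes and have another base than 1 of 9, since the 8 genes in neither table were not tested. *PBS3* was at 7.32 and 12.4 RPKM in *msil2/4*, against 0.89 and 2.33 RPKM in Col-0. None of 13 genes for NPR1, NPR3, NPR4, the NIMIN proteins, the TGA factors and SNI1, which act with or against NPR1 in *PR1* expression, was in a table. Of 10 WRKY genes of salicylic acid responses, 4 were called higher, *WRKY38*, *WRKY46*, *WRKY51* and *WRKY62*, and 1 lower, *WRKY18*. *WRKY51* was at 31.6 and 38.0 RPKM in *msil2/4*, against 5.0 and 13.2 RPKM in Col-0, and *WRKY38* at 11.2 and 11.2 RPKM, against 0.23 and 2.58 RPKM. *WRKY62*, at 19.4 and 30.0 RPKM in *msil2/4* against 0.65 and 10.7 RPKM in Col-0, lost its call when Col-0 replicate 1 was left out, with an adjusted p of 0.0662 in limma, and with pseudocounts of 0.1 (0.0706) and 0.01 (0.0873). Over the alternatives its adjusted p in limma ran between 6.09e-06 and 0.0873. The lowest value came from a fit with the replicate number as a block, in which the spread of single genes did not count.

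The other PR genes and the markers of neighboring hormone responses were mixed. Of the 5 canonical PR genes, *PR1*, *PR5* and the basic chitinase gene *PR3* were in the Up table, while *PR2* (a beta-1,3-glucanase gene) and *PR4* (a hevein-like gene) were in neither. *PR3* was at 200.3 and 363 RPKM in *msil2/4*, against 13.1 and 36.3 RPKM in Col-0. Of 10 jasmonate and ethylene genes, 2 were called higher, *PDF1.2A* and *PDF1.2C*, 1 was called lower, the repressor gene *ERF4*, and 7 were in neither table. Of 13 genes of osmotic and ABA responses, 5 were called lower, 0 were called higher and 8 had no value because they were in neither table. All 5 that were listed were thus called lower. The 33.3% called lower over both tables is a share of listed genes alone and has another base than 5 of 13. Counts over whole lists, as given here, stand beside 156 genes in the Up table and 78 in the Down table, of 27443 protein-coding genes counted above. Among the 5, the desiccation-responsive gene *RD29A* was at 23.7 and 32.1 RPKM in *msil2/4*, against 218 and 126 RPKM in Col-0, and the dehydrin gene *ERD10* was at 112 and 87.0 RPKM, against 581 and 255 RPKM. The median log2 difference of the 5 was -2.54, beside a median of -1.80 over the 78 genes of the Down table, where the sign was fixed by the choice of genes.

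Markers of cell types were checked for a shift in tissue makeup. Of 17 markers of epidermis, phloem, xylem and fibers, 16 were in neither table, so the labelled tissue could not be checked from the values held here, and *LTP1*, an epidermis-expressed lipid transfer protein gene, was at 62.8 and 337 RPKM in *msil2/4*, against 9.87 and 1.64 RPKM in Col-0. No leaf photosynthesis gene of 4 was listed. Of 6 senescence markers, *SEN1* was called lower and 5, *SAG12* and *SAG13* included, were in neither table. The part of the *LTP1* and *SEN1* differences in the levels of *PR1*, *PR5* and *OSM34* was not tested.

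**Figure D4:**
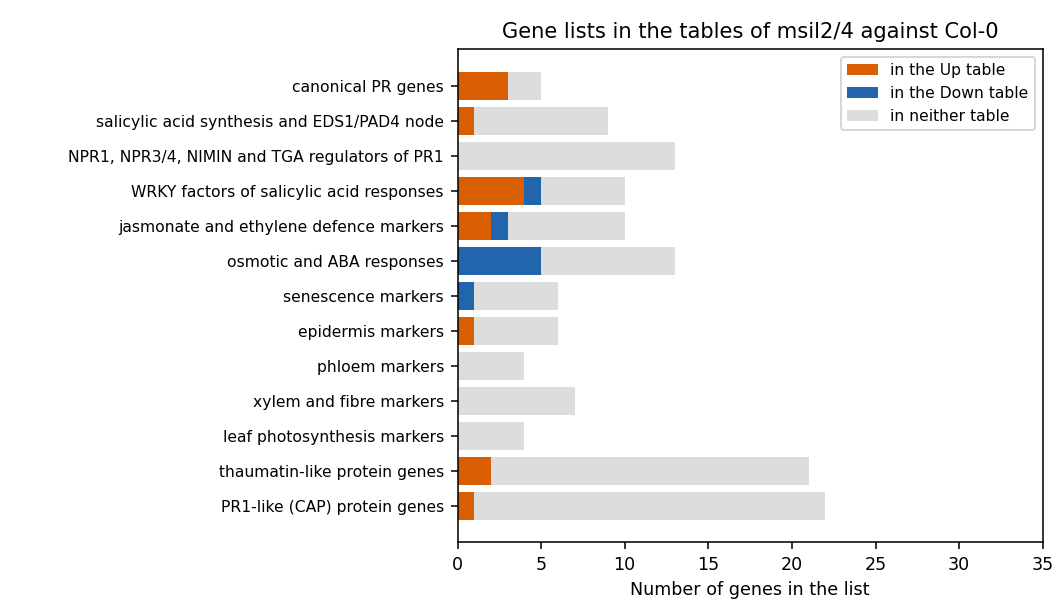
Number of genes of each list that were in the Up table (orange), in the Down table (blue) or in neither table (gray) of *msil2/4* against Col-0. Both tables together hold 234 genes, beside 27443 protein-coding genes. *PR5* and *OSM34* are the 2 thaumatin-like genes of 21 in a table. The 13 genes for NPR1 and for proteins that act with or against it on *PR1* are all in neither.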

How the data were processed

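Polyadenylated RNA from 4 stem libraries was sequenced as single-end reads of 75 nt. Per the methods of the study and the submitters' notes, alignment to TAIR10 used TopHat2 2.0.7 and Bowtie2 2.3.4, transcripts were quantified with Cufflinks 2.2.1 and genotypes compared with Cuffdiff, whose version is not given in the sources used here. The kit is named differently in the methods (TruSeq stranded) and in the labels (NEBNext directional). The authors deposited RPKM values per library and 1 RPKM value per genotype, only for genes past a log2 fold change of 1.5 or -1.5 and a P value limit. Their fold change columns were not used. Although the methods describe a filter at 1 RPKM, 64 of 234 listed genes were below 1 RPKM in a library. Whether the 2 libraries of a genotype came from separate plants is stated only in general terms.

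Samples were grouped by their titles, and table columns were matched to titles by genotype and replicate number. log2(RPKM + 1) was fitted across all 234 genes with limma 3.58.1 in R 4.3.3 (two-sided, Benjamini-Hochberg). The procedure was tested on simulated data in which every gene had the same spread, so that check does not cover genes of unequal spread. The limma p-values are not independent evidence, because the genes were listed on the same libraries. An exact permutation test of 2 against 2 libraries cannot go below p = 0.333. The 3 genes and all gene lists were chosen with earlier results of these data known. Named genes were the 3 genes, the 5 nearest in pattern to each, and every listed member of the lists. In the thaumatin-like list, *PR5* was added to genes whose product text holds thaumatin or osmotin. All 234 identifiers were found in RefSeq TAIR10.1, which gave coordinates, upstream sequence, motif shares and translated proteins (Biopython 1.88, Python 3.11.15; identity over aligned residues, BLOSUM62). Reads and other genes were not analysed here. The sequence upstream of *PR1* is not reported here.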

Additional observations from a re-analysis of the deposited data

How the results depend on the processing

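The sign of the difference of *PR1*, *PR5* and *OSM34* was the same under every alternative run. It could not have changed, because both *msil2/4* libraries lay above both Col-0 libraries for each gene. The pseudocount moved the low genes most, to 8.92 and 9.43 for *PR1* and 5.92 and 6.01 for *OSM34* with 0.1 and 0.01 RPKM. Leaving out 1 library at a time, the log2 difference ranged from 6.23 to 8.39 for *PR1*, from 2.46 to 3.14 for *PR5* and from 4.68 to 5.82 for *OSM34*, where a lone library was assumed to vary like the others. The ratio of the means, an alternative chosen after seeing the data, then ranged from 167 to 3639 for *PR1*, from 5.52 to 8.83 for *PR5* and from 34.0 to 125 for *OSM34*. On the log2 scale, the authors' values per genotype gave 7.40, 2.67 and 4.99. Genes called higher numbered 154 and fell to 97 when only genes at 1 RPKM or more in every library were kept, a filter that removes *PR1* and *OSM34*. Without 1 library, 139 to 152 genes were called higher and 73 to 77 lower. With the replicate number as a replicate block, 156 were called higher and 78 lower. In that run the standard error was 0.51 for *PR1*, *PR5* and *OSM34* alike. The spread of single genes thus did not count, and these calls are no check of the main ones. The numbers were not treated as pairs in the main fit, since the methods of the study state no pairing. Replicate differences correlated at 0.07 across the listed genes, which cannot show whether the libraries were paired.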
